A study of Homo sapiens with 96 samples.

Results

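The endoplasmic reticulum (ER) chaperones described here are 10 genes of 60675 in the deposited table, each found by its symbol in 1 row: HSPA5, HSP90B1, SDF2L1, MANF, HYOU1, DNAJB9, DNAJB11, PDIA4, CRELD2 and CALR. Their transcripts were measured by RNA sequencing in A549, a human lung adenocarcinoma cell line, after exposure to Paeoniae Radix, the dried peony root of traditional medicine, or to single ingredients of it. In the first batch (21 libraries, 7 groups) the treated cells were given root extracted with water or with ethanol, each at 500, 100 or 20 µg/mL, and control cells were given the vehicle of that batch. In the second batch (75 libraries, 25 groups) they received albiflorin, benzoic acid, catechin, gallic acid, hederagenin, oleanolic acid, paeoniflorin or paeonol at 10, 2 or 0.4 µM, or the vehicle of that batch. Every group held 3 libraries and every comparison with vehicle used the vehicle libraries of the same batch. The cells were of a single line throughout. What the vehicle was and how long the cells were exposed is not given in the sources used here, and no label says that the replicates came from separate cultures, so the p-values measure how far these libraries spread, and that spread may be technical.

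Proteins that enter the secretory pathway fold in the ER with the help of chaperones and disulfide isomerases. When unfolded proteins build up there, sensors in the ER membrane (IRE1, PERK and ATF6) start the unfolded protein response. Cleaved ATF6 and spliced XBP1 then raise transcription of ER chaperones through promoter elements such as the ER stress response element, while PERK slows translation and raises ATF4 and its targets. HSPA5 (BiP) is the ER member of the HSP70 family and binds the sensors in unstressed cells. HSP90B1 (GRP94) is the ER member of the HSP90 family. HYOU1 is an HSP70-like protein that helps HSPA5 release nucleotide. DNAJB9 (ERdj4), DNAJB11 (ERdj3) and SDF2L1, which forms a complex with DNAJB11, are co-chaperones of HSPA5. CALR is a lectin chaperone that binds calcium and glycoproteins, PDIA4 a disulfide isomerase, and MANF and CRELD2 are ER proteins that are secreted under stress.

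Promoter sequences are shown because several of these genes moved together. All 10 genes had an entry in the RefSeq table of promoter windows (GRCh38.p14), with a pair of windows for PDIA4. A window covers 250 bases before and 50 bases after the annotated start of transcription. Both strands were searched for the ER stress response element (ERSE, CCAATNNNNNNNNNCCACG), for ERSE-II (ATTGGNCCACG) and for the unfolded protein response element (UPRE, TGACGTGG). ERSE and ERSE-II share the CCACG part, and the UPRE match in HYOU1 overlaps an ERSE-II match. For HSPA5, with 1 ERSE, and HYOU1, with 2 ERSE-II, the 250 bases before the start are given 5′ to 3′ on the strand of the gene, and capitals mark the fixed bases of ERSE or ERSE-II, read on either strand.

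HSPA5 (chr9:125241344-125241593, minus strand): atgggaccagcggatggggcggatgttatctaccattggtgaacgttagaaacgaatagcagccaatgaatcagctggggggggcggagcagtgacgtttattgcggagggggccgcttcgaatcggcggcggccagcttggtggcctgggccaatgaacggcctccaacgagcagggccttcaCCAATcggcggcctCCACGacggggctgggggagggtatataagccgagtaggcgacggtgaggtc
HYOU1 (chr11:119057206-119057455, minus strand): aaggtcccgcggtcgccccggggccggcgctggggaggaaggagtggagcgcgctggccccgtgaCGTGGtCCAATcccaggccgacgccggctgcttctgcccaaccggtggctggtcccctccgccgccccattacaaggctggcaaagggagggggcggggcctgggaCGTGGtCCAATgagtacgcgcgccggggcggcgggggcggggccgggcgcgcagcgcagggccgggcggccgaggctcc

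ERSE was found in 4 members. In HSPA5 it lay 66 to 48 bases before the start, as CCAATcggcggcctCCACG. In HSP90B1 there were 2 copies, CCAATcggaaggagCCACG on the strand of the gene and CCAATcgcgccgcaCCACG on the other. CALR held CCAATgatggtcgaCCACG and CRELD2 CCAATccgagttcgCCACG, both on the other strand. Among all 35116 promoter windows of the table, 27 (0.0769%) held an ERSE. ERSE-II was found in HYOU1, where ATTGGaCCACG occurred at 2 places, and in SDF2L1 as ATTGGtCCACG, against 19 of 35116 windows (0.0541%). UPRE was found in HYOU1 and in 0.729% of all windows. No match to these letters was found in the windows of MANF, DNAJB11, PDIA4 and DNAJB9. A match is a description of the letters and not a site in use.

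Expected counts summed to 17.93 to 28.14 M (mega) per library in the first batch and to 15.68 to 35.6 M in the second. Counts of the 10 genes ran from 130 (DNAJB9) to 54052 (HSP90B1) per library, so all passed the filter on low counts. Epithelial markers of A549 (KRT8, KRT18, KRT19, EPCAM, CDH1 and KRT7) summed to 4542 to 6955 CPM (counts-per-million) in the first batch and to 6875 to 16925 in the second, and PTPRC, which defines blood cells, stayed at or below 0.227 CPM. In the second batch 4 libraries (catechin 10 and 2 µM replicate 2, gallic acid 2 and 0.4 µM replicate 1) held 496 to 595 CPM of COL1A2, a collagen gene, against at most 0.119 in vehicle. The share of counts from mitochondrially encoded genes ran in the second batch from 11.6 to 12.1% with vehicle and from 0.486 to 15.5% with an ingredient, and 17 libraries lay under 3.99%, the vehicle median divided by 3. In the first batch it was 13.9 to 18.5% in vehicle and 11.6 to 15.3% in treated libraries.

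All levels are CPM on library sizes adjusted by trimmed mean of M-values (TMM), and changes are log2 differences ± SE from the edgeR quasi-likelihood test over all genes of a batch. A gene is said to rise or fall only where its edgeR adjusted p (Benjamini-Hochberg over all genes tested) was under 0.05. Per kilobase of merged exons, CALR (232 CPM per kb), HSP90B1 (213) and HSPA5 (175) were the most abundant members in vehicle of the first batch. PDIA4 followed at 91.8 CPM per kb, then MANF (18.4), HYOU1 (15.2), SDF2L1 (11), DNAJB11 (9.45), CRELD2 (3.13) and DNAJB9 (2.71). With the longest transcript as the length, HSP90B1 (330.5) and CALR (330.2) could hardly be told apart.

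At 500 µg/mL the ethanol extract lowered 8 of the 10 chaperones and raised 1, DNAJB9. MANF did not pass the test. The background was large: 69.1% of all 16854 genes tested passed in this comparison (34.7% higher, 34.4% lower), so the count of 9 called members says little by itself, and the median change was -0.47 for the 10 genes and 0.001 for all genes. A lack of overlap with vehicle was also common. Of all genes 35.4% had their 3 treated libraries wholly below vehicle and 35.9% wholly above it. As in any bulk measurement, a CPM is a share of all RNA, and less RNA of a gene per cell cannot be told apart from fewer cells that make it. In these 3 libraries the A549 markers summed to 4542 to 4732 CPM against 6049 to 6955 in vehicle, the summed blood and immune markers to 22 to 27.1 against 11.5 to 14.9 CPM with PTPRC at or below 0.042 CPM in the batch, and the mitochondrial share was 12.1 to 13.4%. Their part in the result was not tested beyond the mitochondrial share, with which as a covariate 9 members were still called.

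Among the HSP70 and HSP90 chaperones, HSP90B1 fell most. It stood at 987, 1069 and 949.7 CPM in vehicle and at 524, 516 and 521 CPM with ethanol extract at 500 µg/mL. All 3 treated libraries lay far below the lowest vehicle library, a change of -0.95 ± 0.038 (edgeR adjusted p = 3.5e-16). HSPA5 went from 659, 738 and 652 CPM in vehicle to 453, 454 and 450.3 CPM. The treated libraries were nearly equal and did not overlap vehicle (-0.59 ± 0.039, edgeR adjusted p = 2.9e-12). HYOU1 went from 111, 121 and 118 CPM to 77.1, 74.2 and 74.2 CPM, again without overlap (-0.63 ± 0.044, edgeR adjusted p = 7e-12).

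The co-chaperones of HSPA5 went different ways. DNAJB9, which recruits HSPA5 to misfolded proteins and to IRE1, was at 8.20, 6.52 and 8.36 CPM in vehicle and at 22, 23 and 20.2 CPM with ethanol extract at 500 µg/mL. Every treated library was above every vehicle library, a rise of 1.49 ± 0.10 (edgeR adjusted p = 4.6e-12). DNAJB9 shares exon sequence with THAP5 and PNPLA8 on the opposite strand, and whether strand was used in counting is not given in the sources used here. In the same comparison THAP5 changed by 0.37 ± 0.065 (27.6 to 35.6 CPM) and PNPLA8 by -0.39 ± 0.082 (17.9 to 13.7 CPM). The part of their reads in the DNAJB9 value was not tested. HSP90B1 likewise overlaps exons of C12orf73 and TTC41P, DNAJB11 of TBCCD1, CRELD2 of ALG12, and HYOU1 and CALR each of an antisense gene, so their values carry the same limit. SDF2L1 was at 11.1, 14.9 and 10.4 CPM in vehicle and at 9.24, 7.99 and 6.93 CPM with the extract, below vehicle in all 3 libraries (-0.59 ± 0.13, edgeR adjusted p = 0.00027). DNAJB11, the partner of SDF2L1, fell less, from a mean of 54.1 ± 3.32 (SD, n = 3) to 47.2 ± 1.92 CPM (-0.19 ± 0.048, edgeR adjusted p = 0.001).

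Of the other members, CALR was at 612, 631 and 642 CPM in vehicle and at 501, 489 and 496 CPM with ethanol extract at 500 µg/mL, without overlap (-0.34 ± 0.036, edgeR adjusted p = 1.1e-08). CRELD2 was at 14.7, 19.2 and 14.7 CPM in vehicle and at 8.54, 10.5 and 12.1 CPM with the extract (-0.62 ± 0.11, edgeR adjusted p = 1.6e-05). PDIA4 fell by 0.11 on the log2 scale, from 305, 307 and 290.3 CPM to 276, 278 and 282 CPM. The change was small, and its groups did not overlap, as for the 35.4% of all genes wholly below vehicle. MANF overlapped vehicle, with 40.7, 46.4 and 44.7 CPM in vehicle and 44.2, 43.4 and 41.9 CPM with the extract (-0.023 ± 0.059, edgeR adjusted p = 0.74). The 6 members with an ERSE or ERSE-II in the promoter window changed by -0.34 to -0.95, and the 4 without changed by -0.19 to 1.49. At 100 µg/mL of this extract these sets were not separate. Both the smallest change (0.039, DNAJB11) and the largest (0.64, DNAJB9) lay among the members without such an element. The part of these elements in the changes was not tested.

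**Figure D1:**
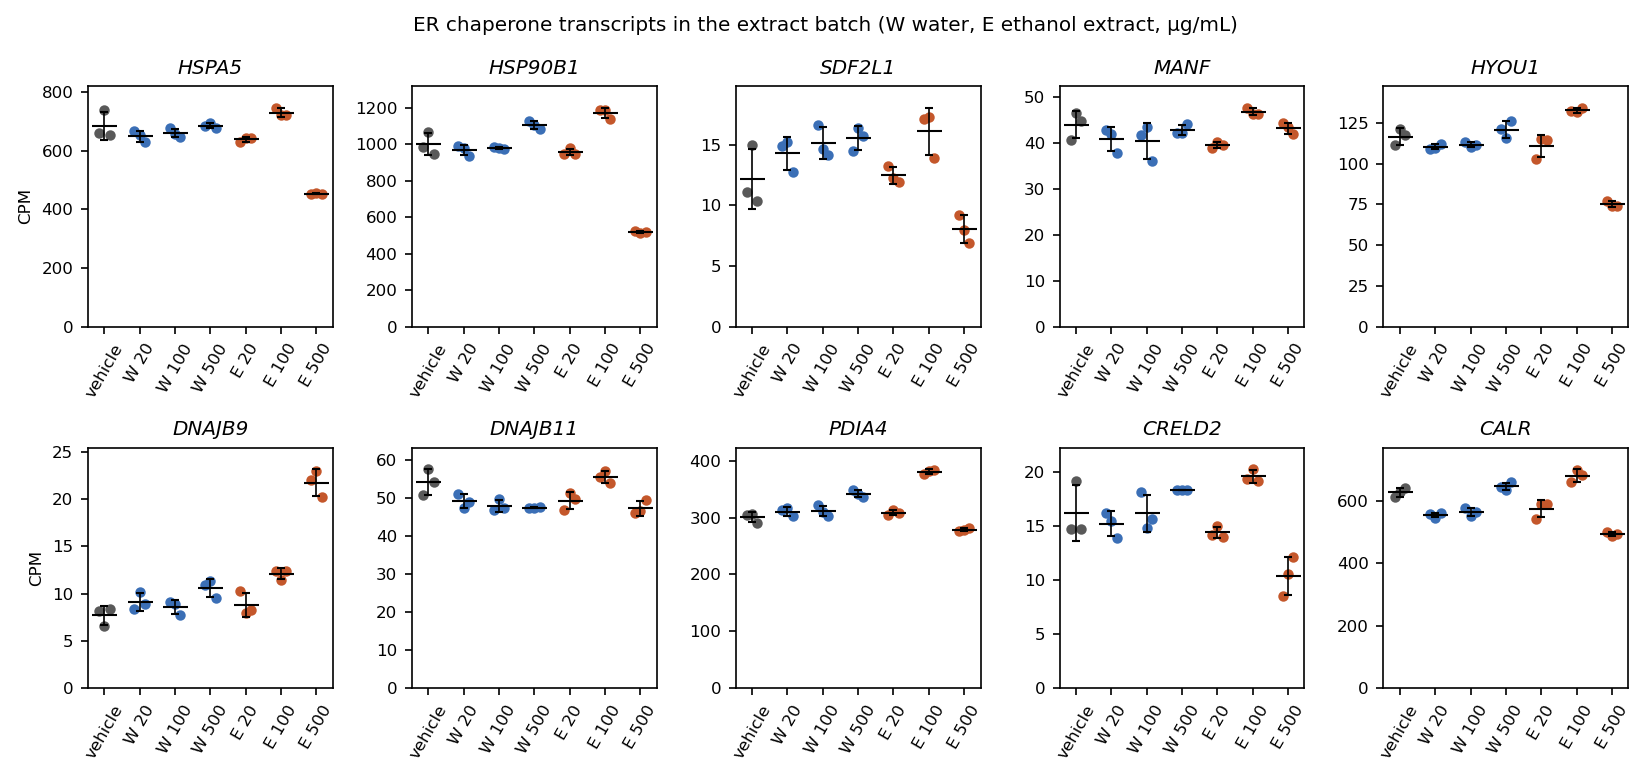
CPM (linear axis from 0) of each of the 10 ER chaperone genes in the 21 libraries of the extract batch, with dots for libraries and black bars for mean ± SD of 3. HSP90B1, HSPA5 and HYOU1 drop at 500 µg/mL of ethanol extract after a level at or above vehicle at 100 µg/mL, while DNAJB9 climbs to 20.2 to 23 CPM.

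At 100 µg/mL the same extract gave the opposite picture. The test called 7 chaperones higher than vehicle and none lower, where 17.5% of all genes passed (8.26% higher, 9.23% lower), and the median change was 0.21 for the 10 genes and 0.0037 for all genes. PDIA4 was at 376, 382 and 384 CPM against 305, 307 and 290.3 CPM in vehicle, a rise of 0.34 ± 0.033 (edgeR adjusted p = 4.8e-07) that ranked 16 among all genes by p. DNAJB9 rose to 12.4, 11.5 and 12.4 CPM (0.64 ± 0.11, edgeR adjusted p = 0.00022). HSP90B1 rose to 1188, 1189 and 1138 CPM, above the highest vehicle library at 1069 CPM (0.23 ± 0.037, edgeR adjusted p = 0.00022).

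HYOU1 rose to 132, 132 and 134 CPM, also without overlap (0.19 ± 0.042, edgeR adjusted p = 0.0036). At this dose 6 members lay wholly above vehicle, where 15.9% of all genes did. The rises of SDF2L1 (0.42), CRELD2 (0.28) and CALR (0.12) were smaller against their spread, with edgeR adjusted p of 0.014, 0.046 and 0.023. SDF2L1 reached 17.1, 17.3 and 13.9 CPM, and its lowest treated library lay under the highest vehicle library at 14.9 CPM. HSPA5 (745, 722 and 721 CPM, 0.095 ± 0.039), MANF (0.092 ± 0.058) and DNAJB11 (0.039 ± 0.047) did not pass. Leaving out 1 library left between 4 and 8 members called. It was 4 without vehicle replicate 1 and 4 without ethanol extract 100 µg/mL replicate 2, and SDF2L1, CRELD2 and CALR were the members lost both times. With the mitochondrial share as a covariate, which was 12.6 to 13.9% here, 5 were called and SDF2L1 (0.12) and CRELD2 (0.16) were lost.

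At 20 µg/mL only CALR passed, and it was lower: 543, 591 and 591 CPM against 612, 631 and 642 CPM in vehicle (-0.13 ± 0.036, edgeR adjusted p = 0.032, with 7.45% of all genes called). That call was lost without vehicle replicate 2, without vehicle replicate 3 and without ethanol extract 20 µg/mL replicate 1. Among the other 9 members the changes ran from -0.16 (CRELD2) to 0.19 (DNAJB9). Between neighbouring doses of ethanol extract the turn was plain. From 20 to 100 µg/mL, 8 members rose and none fell, against 1.79% of all genes called in either direction. The changes ran from 0.17 (DNAJB11) to 0.45 (DNAJB9), and SDF2L1 and DNAJB11 did not pass (edgeR adjusted p = 0.11 and 0.056). With the mitochondrial share as a covariate all 10 passed, and with only the groups compared 6. Leaving out 1 library gave 5 to 7 calls, with 5 without replicate 1 or replicate 3 at 100 µg/mL and 5 without replicate 3 at 20 µg/mL.

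From 100 to 500 µg/mL of ethanol extract, 8 members fell and DNAJB9 rose (65.8% of all genes called). HSP90B1 fell by 1.17 on the log2 scale, SDF2L1 by 1.01, CRELD2 by 0.91, HYOU1 by 0.82 and HSPA5 by 0.69. CALR and PDIA4 fell by 0.46 and 0.45, DNAJB11 fell by 0.23, and MANF (-0.11 ± 0.057, edgeR adjusted p = 0.084) did not pass. DNAJB9 rose by 0.84 ± 0.092 (edgeR adjusted p = 2.4e-08) and was the only member called higher in both steps. Its call from 20 to 100 µg/mL was lost without replicate 1 or 3 at 100 µg/mL and without replicate 2 or 3 at 20 µg/mL (edgeR adjusted p = 0.081 to 0.134). The 2 steps share the libraries at 100 µg/mL.

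**Figure D2:**
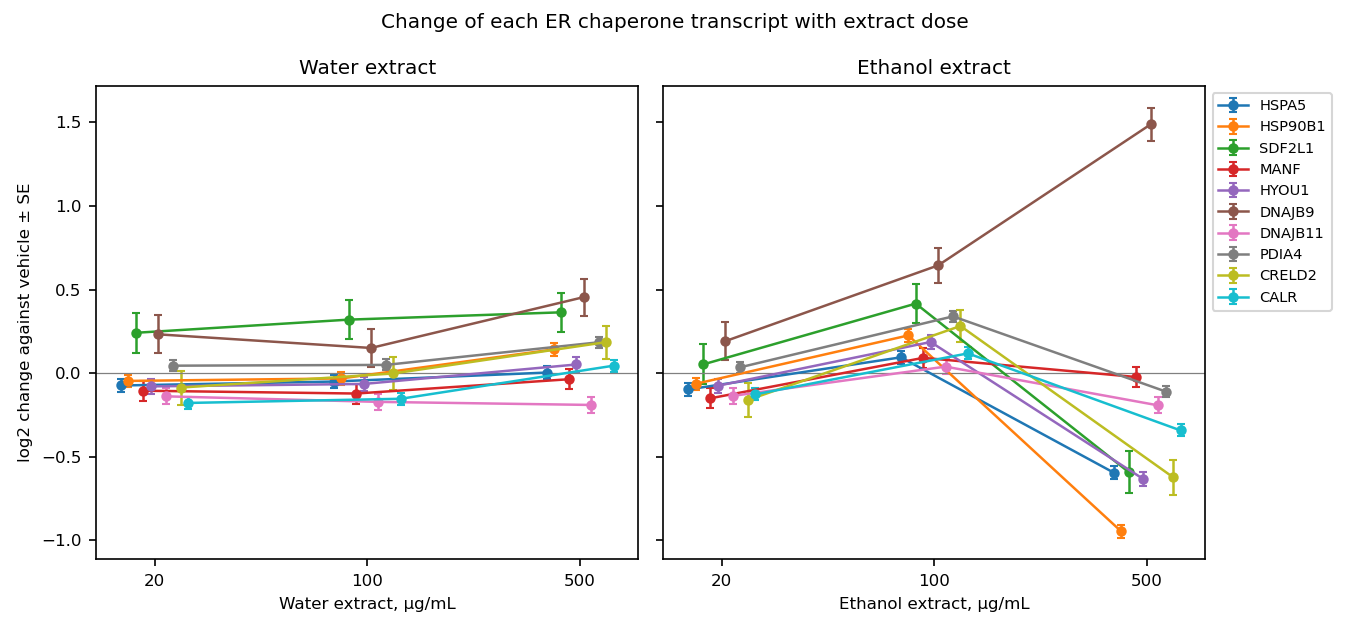
Log2 change against vehicle ± SE for each of the 10 genes at 20, 100 and 500 µg/mL (points set slightly apart sideways), water extract on the left and ethanol extract on the right. With ethanol extract all 10 points lie above 0 at 100 µg/mL and 9 lie below 0 at 500 µg/mL, with DNAJB9 at 1.49. With water extract all points lie between -0.19 and 0.46.

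With water extract at 500 µg/mL, 4 members rose and 1 fell (21.1% of all genes called): DNAJB9 by 0.46 ± 0.11 (10.9, 11.3 and 9.48 CPM), SDF2L1 by 0.36 ± 0.12, PDIA4 by 0.18 ± 0.033 (348, 341 and 337 CPM) and HSP90B1 by 0.14 ± 0.037 (1127, 1104 and 1086 CPM). All 3 HSP90B1 libraries were above the highest vehicle library at 1069 CPM, and 17.2% of all genes likewise lay wholly above vehicle. DNAJB11 was lower (47.4, 47.2 and 47.5 CPM against 50.8, 57.4 and 54.2 CPM in vehicle, -0.19 ± 0.048). HSPA5 stayed within the vehicle range at 685, 692 and 677 CPM. With the mitochondrial share as a covariate 2 of these 5 calls were left, and 3 were left without vehicle replicate 3.

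At 100 µg/mL of water extract CALR and DNAJB11 were lower (-0.15 ± 0.036 and -0.17 ± 0.048, 12.6% of all genes called). The DNAJB11 call was lost without vehicle replicate 2 or 3 and without water extract replicate 1 or 3, and both calls were lost with the mitochondrial share as a covariate. At 20 µg/mL CALR alone was lower, at 558, 547 and 561 CPM (-0.18 ± 0.036, edgeR adjusted p = 0.0035, 9.51% of all genes called), and leaving out vehicle replicate 1 or 2 made that 2 calls. Between 100 and 20 µg/mL no member passed (0.0119% of all genes called). No member had an unadjusted p under 0.05 there, and DESeq2 also called 0. Between 500 and 100 µg/mL HSP90B1 (0.17), CALR (0.20) and PDIA4 (0.14) rose, where 1.16% of all genes were called. Only 1 of these 3 calls was left without replicate 1 or 2 at 500 µg/mL and without replicate 2 or 3 at 100 µg/mL.

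Setting the extracts against each other at the same dose left the vehicle libraries out of the difference. They still entered the shared fit and its estimate of the spread. At 500 µg/mL, 7 members were lower with ethanol than with water extract, DNAJB9 was higher, and MANF and DNAJB11 did not differ beyond the spread (66.1% of all genes called). The differences were -1.09 ± 0.038 for HSP90B1, -0.95 ± 0.12 for SDF2L1, -0.81 ± 0.10 for CRELD2, -0.69 ± 0.044 for HYOU1 and -0.60 ± 0.039 for HSPA5. They were smaller for CALR (-0.39) and PDIA4 (-0.29), and DNAJB9 stood 1.03 ± 0.096 higher.

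At 100 µg/mL all 10 differences were above 0 and 6 passed, while 1.77% of all genes were called (0.926% higher, 0.848% lower). PDIA4 (0.29 ± 0.033, edgeR adjusted p = 1.3e-05) ranked 11 among all genes by p. CALR (0.27 ± 0.036), HSP90B1 (0.26 ± 0.037), HYOU1 (0.25 ± 0.042), DNAJB9 (0.49 ± 0.10) and DNAJB11 (0.21 ± 0.047) followed. HSPA5 (0.14, edgeR adjusted p = 0.056), MANF (0.21, 0.065), CRELD2 and SDF2L1 did not pass. HSPA5 and MANF did pass in DESeq2 (adjusted p = 0.0098 and 0.045) and with the mitochondrial share as a covariate, each of which called 8 members. Leaving out 1 library gave 4 to 7 calls, with 4, and DNAJB9 and DNAJB11 lost, without ethanol extract replicate 1 or water extract replicate 3. At 20 µg/mL the test called no member and 0% of all genes. None of the 10 had an unadjusted p under 0.05 (735 of all genes did), and DESeq2 called 0 members and 0 genes. The widest 95% interval there, for SDF2L1, reached -0.43.

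The step from 100 to 500 µg/mL differed between the extracts for all 10 members, by the interaction term of the same fit (52.8% of all genes called). The difference, ethanol minus water extract, was lowest for HSP90B1 (-1.35 ± 0.053) and CRELD2 (-1.09 ± 0.14) and nearest to 0 for MANF (-0.20 ± 0.083, edgeR adjusted p = 0.047). The MANF value lost its call in DESeq2 (adjusted p = 0.077) and in 10 of the 12 fits that left out 1 library. For DNAJB9 alone it was positive, 0.54 ± 0.14 (edgeR adjusted p = 0.0028).

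Other genes of the ER stress response were followed in lists chosen with earlier results of these data known. With ethanol extract at 500 µg/mL the PERK and ATF4 list rose in all of its 10 members (median 1.12), where 34.7% of all genes were called higher and 34.4% lower. STC2, a secreted glycoprotein and ATF4 target, went from a mean of 15.1 ± 2.10 to 164 ± 3.94 CPM (SD, n = 3), a rise of 3.45. TRIB3, a pseudokinase induced by ATF4 and DDIT3, rose by 2.04 (38.7 ± 2.34 to 159 ± 1.92 CPM). ATF4 itself rose by 0.78 and DDIT3 (CHOP) by 1.62. In the list of ER-associated degradation, 9 of the 11 genes tested rose and XBP1 fell (-0.27 ± 0.045). XBP1 was placed in that list, though it encodes the transcription factor described above and not a degradation protein. HERPUD1 and EDEM1, both raised by the unfolded protein response in many cells, rose by 1.33 and 1.36, and SEL1L by 0.45.

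Of the 10 sensors and transducers, 6 rose and NFYB fell (-0.53 ± 0.056). ERN1, which encodes IRE1, rose by 1.35 and EIF2AK3, which encodes PERK, by 1.21. NFYB is a subunit of the factor that binds the CCAAT box. Among 18 other ER folding genes, 9 rose and 4 fell. The shares called in the sensor, folding and translocation lists (7 of 10, 13 of 18 and 10 of 14) are near the 69.1% of all genes, so these counts are no result about the lists. P4HB, a disulfide isomerase, rose by 0.81 (600.1 ± 11.2 to 1055 ± 6.06 CPM), ERO1A, an oxidase that recharges it, by 1.05 and DNAJC3, a co-chaperone of HSPA5 like DNAJB9, by 0.98. DNAJC10, another, fell by 0.48. Of 14 translocation genes 9 rose and SRP54 fell (-1.79 ± 0.049). All 16 cytosolic and mitochondrial chaperones fell, with a median of -1.02. FKBP4 fell by 1.39 and STIP1 by 1.24, both partners of cytosolic HSP90. HSPA1A fell by 2.86, though reads are hard to divide between it and its near copy HSPA1B.

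With ethanol extract at 100 µg/mL these lists moved less, and 8.26% of all genes were called higher and 9.23% lower. In the PERK and ATF4 list 3 of 10 rose (ASNS by 0.38, VLDLR by 0.26, TRIB3 by 0.19), and STC2 was level with vehicle (15.5 ± 1.0 CPM, 0.045 ± 0.091). Of the 18 other ER folding genes 6 rose and none fell, with DNAJC3 at 0.45 and P4HB at 0.28. Of the 11 genes tested in the degradation list 6 rose and UBE2J1 fell. EDEM1 rose by 0.46 and HERPUD1 by 0.21. Of the 16 cytosolic and mitochondrial chaperones none rose and 8 fell. The list medians, between -0.11 and 0.17, stood beside 0.0037 for all genes.

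**Figure D3:**
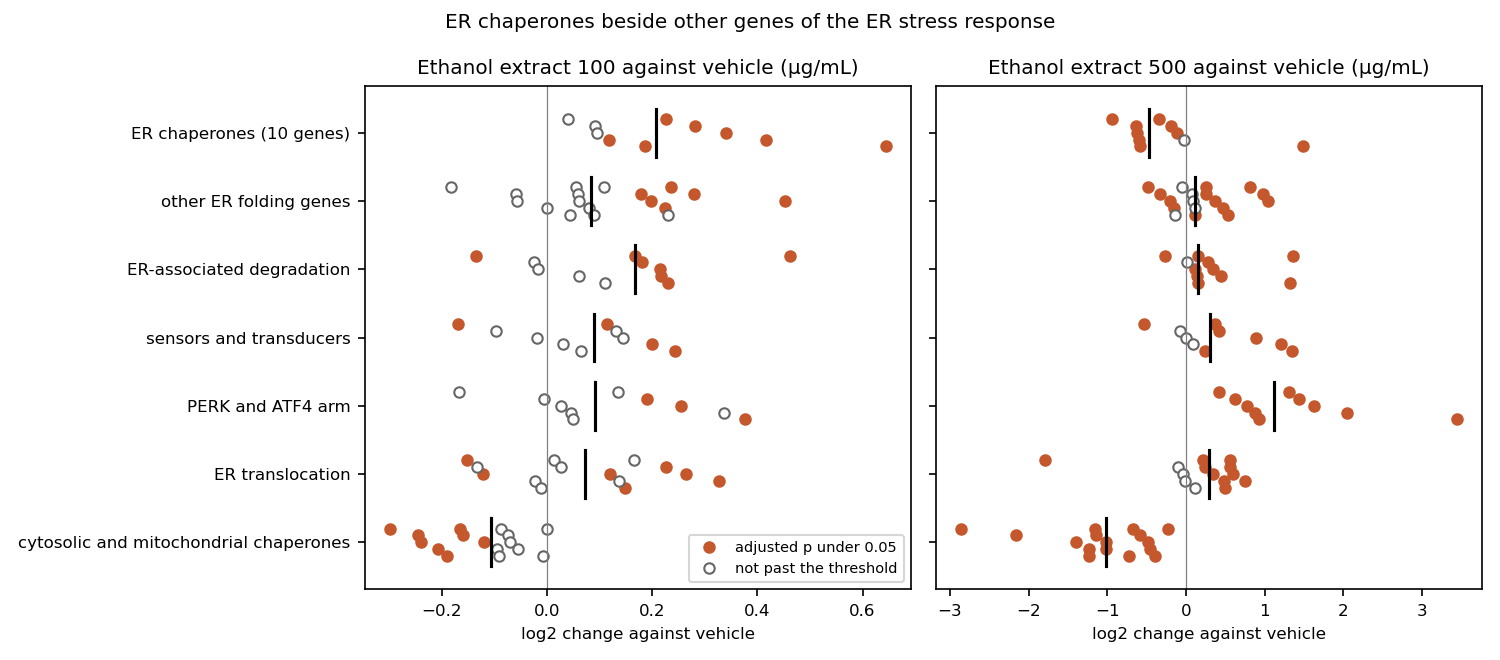
Log2 change against vehicle of each gene in 7 lists at 100 µg/mL (left) and 500 µg/mL (right) of ethanol extract, filled where the adjusted p was under 0.05, with black lines at list medians and different horizontal scales. At 500 µg/mL the ER chaperones, with a median of -0.47, lie lower than the PERK and ATF4 list with 1.12, and DNAJB9 lies apart at 1.49.

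In the ingredient batch, gallic acid at 10 µM was the ingredient and dose at which all 10 chaperones were higher than vehicle, by 0.66 (PDIA4) to 1.89 (CRELD2), with 13.5% of all 18324 genes called (8.51% higher, 4.96% lower). Gallic acid is a small phenolic acid found in many plants. The 3 libraries differed much among themselves. HSP90B1 was at 835, 837 and 841 CPM in vehicle and at 2938, 1174 and 2109 CPM with gallic acid in replicates 1 to 3. HSPA5 was at 629, 631 and 627 CPM in vehicle and at 1412, 907 and 1207 CPM. CRELD2 was at 15.8, 17.1 and 16.7 CPM in vehicle and at 92.6, 21.6 and 69.6 CPM. In each of these genes replicate 2 was the lowest of the treated libraries and was still above every vehicle library. All 10 members lay wholly above vehicle, as did 2574 of all 18324 genes, while 2926 genes lay wholly below it. A lack of overlap with these vehicle libraries therefore says little by itself.

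The mitochondrial share moved with these levels. It was 1.44 and 2.07% in gallic acid replicates 1 and 3 and 15.5% in replicate 2, the highest of the batch. The summed A549 markers were 15619, 6875 and 13536 CPM in replicates 1 to 3 against 8215 to 8386 in vehicle, and the summed blood and immune markers 6.81, 18.5 and 8.34 CPM against 13.7 to 15.4. The part of these markers in the rise was not tested. DNAJB9 was less spread, at 17.8, 16.3 and 18.2 CPM against 10.9, 10.4 and 11.2 CPM in vehicle (0.69 ± 0.14, edgeR adjusted p = 0.0018). MANF was at 109, 53.7 and 72.9 CPM against 38.5, 35.8 and 36.7 CPM (1.08 ± 0.18, edgeR adjusted p = 0.00014). DNAJB11 had the smallest p, at 98.1, 75.1 and 92.3 CPM against 53.2, 51.6 and 52.8 CPM (0.75 ± 0.12, edgeR adjusted p = 8.4e-05). CALR rose by 1.01, HYOU1 by 0.90 and SDF2L1 by 1.68.

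With the mitochondrial share as a covariate all 10 calls remained, at 0.44 to 0.90. Without the 17 libraries of low mitochondrial share, gallic acid at 10 µM kept replicate 2 alone. With that 1 treated library the changes ran from 0.24 to 0.60. When vehicle and gallic acid were fitted without the other groups, 0 of 10 passed (edgeR adjusted p = 0.22 for each). In that fit 0 of all genes passed, so it says nothing particular to the members. The changes there were as large (0.67 to 1.91). All 10 had an unadjusted p under 0.05 in the fit of all groups, and DESeq2 called all 10. Leaving out 1 library gave 7 to 10 calls, with 7 without replicate 1. No COL1A2 library was among the groups compared.

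Against its own lowest dose, gallic acid at 10 µM was higher in 6 members (0.557% of all genes called): MANF by 0.95 ± 0.18, DNAJB9 by 0.78 ± 0.14, HSP90B1 by 0.97 ± 0.24, CALR by 0.75 ± 0.18, HYOU1 by 0.74 ± 0.16 and PDIA4 by 0.58 ± 0.13. HSPA5 differed least (0.37 ± 0.20). At 0.4 µM replicate 1 is a COL1A2 library with 1320 CPM of HSPA5, where replicates 2 and 3 had 669 and 737 CPM. The 6 calls became 1 without gallic acid 10 µM replicate 1, and 2 without its replicate 3, without replicate 1 at 0.4 µM or without replicate 2 there. With only the groups compared none passed (edgeR adjusted p = 0.66 to 0.67), and without the libraries of low mitochondrial share, where replicate 2 alone was left at 10 µM, 4 passed and the 10 differences ran from -0.23 to 0.70. At 2 and 0.4 µM no member passed against vehicle in the edgeR test, with 7 and 2 members at an unadjusted p under 0.05. Of all genes 0.611% and 0.0709% were called at these doses.

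In gallic acid at 10 µM, 10 of the 18 other ER folding genes rose and none fell, among them PDIA3 (0.88) and PPIB (0.79), where 8.51% of all genes were called higher and 4.96% lower. In the PERK and ATF4 list 1 of 10 rose, ATF4 itself (0.85). In the list of sensors and transducers, which does not hold XBP1, none rose and NFYA fell. XBP1, a transcription factor of the response, rose by 0.95 and OS9 by 0.63. They were the only ones of the 11 genes tested in the degradation list past the test. Of 14 translocation genes SPCS2 rose (0.38). Of the 16 cytosolic and mitochondrial chaperones HSP90AA1 (0.43), HSP90AB1 (0.36) and TRAP1 (0.33) rose and HSPH1 fell (-0.20). The list medians were 0.42, 0.41 and -0.23 in that order for folding, PERK and ATF4, and sensors, beside 0.95 for the 10 chaperones and 0.017 for all genes. The medians were -0.10 for degradation, -0.0052 for translocation and 0.053 for the cytosolic and mitochondrial chaperones.

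**Figure D4:**
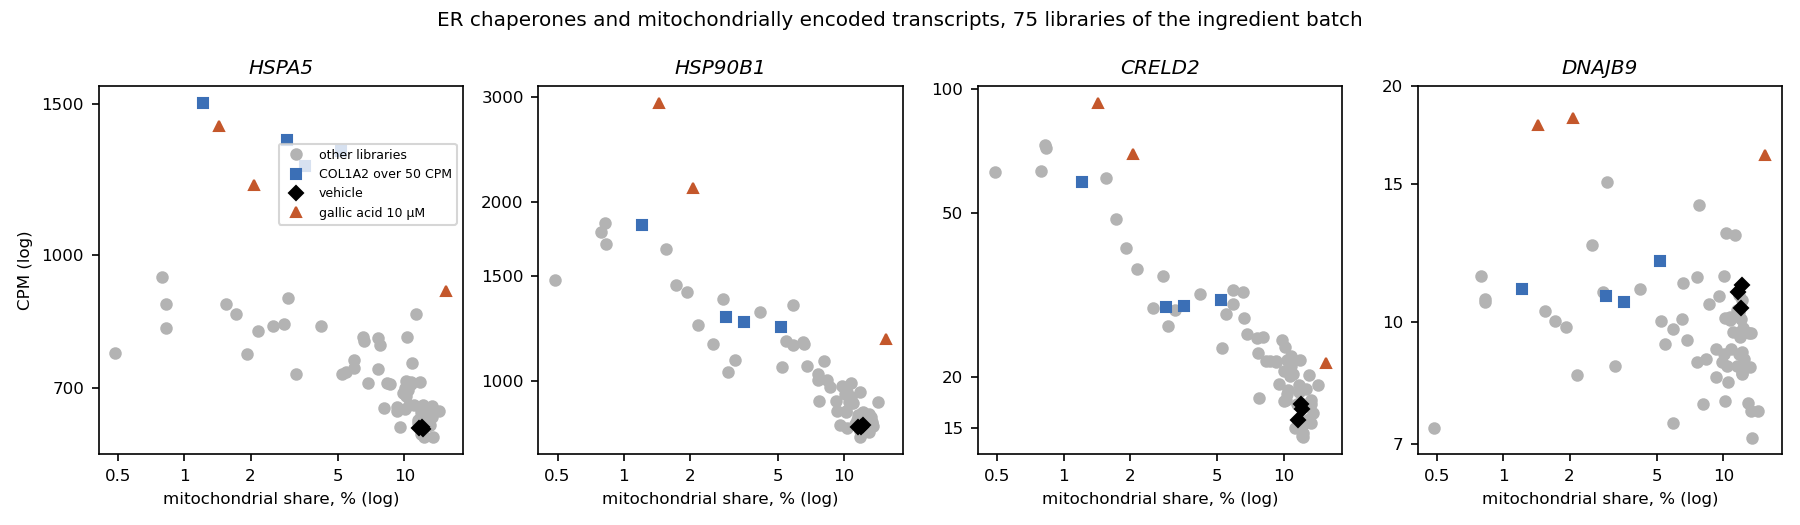
CPM of HSPA5, HSP90B1, CRELD2 and DNAJB9 against the share of mitochondrially encoded transcripts in the 75 libraries of the ingredient batch, both axes logarithmic, with vehicle, gallic acid 10 µM and the libraries with over 50 CPM of COL1A2 marked. CRELD2 falls steadily as the share rises, and the gallic acid library at 15.5% lies above all vehicle libraries in each panel.

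Across all 75 libraries of this batch the chaperones were higher where the mitochondrial share was lower. Pearson's r between log2 CPM and the log2 share was -0.93 for CRELD2 (Spearman's rho -0.88), -0.90 for SDF2L1 (-0.83), -0.88 for HSP90B1 (-0.85) and -0.66 for HSPA5 (-0.78), and it was weakest for DNAJB9 (-0.26, rho -0.33). Over the 10 relations the adjusted permutation p was 1.1e-05 for r of each gene except DNAJB9 (0.025), from 100000 permutations whose smallest possible p is 1e-05. The permutations moved libraries freely across groups and so treat those of a group as independent. How many of all genes show a like relation was not tested. Without the 2 libraries farthest from the median share, r stayed between -0.93 (CRELD2) and -0.36 (DNAJB9). The shares ran on across the 3.99% cut, with 3.52% the nearest below it and 4.16% the nearest above. Among the 58 libraries above the cut r was -0.81 for CRELD2, -0.57 for HSPA5, -0.27 for MANF and -0.12 for DNAJB9. For deviations from the group means, r ran from -0.95 (CRELD2) to -0.37 (DNAJB9), so the relation was also seen within groups of the same treatment. The A549 markers summed to 10166 to 16925 CPM in the 17 libraries under 3.99% and to 6875 to 12120 CPM in the others. The blood and immune markers summed to 6.81 to 10.2 and to 7.92 to 18.5 CPM. The part of either sum in the relation was not tested.

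The other calls of the batch were few. Over all 24 ingredient groups against vehicle, 14 of 240 member tests passed, all of them higher. The share of all genes called in these comparisons ran from 0.0218% (benzoic acid at 2 µM) to 13.5% (gallic acid at 10 µM). An unadjusted edgeR p under 0.05 was found in 68 of the 240 tests. Hederagenin at 0.4 µM and paeonol at 10 µM had 7 such members each and paeoniflorin at 2 µM had 5, with no member called. Of all 18324 genes 5219, 3824 and 2657 had such a p there. The median change of the members was 0.39, 0.38 and 0.33 in that order. Albiflorin and benzoic acid had no such member at any dose. Gallic acid at 10 µM held 10 of the 14 calls. Catechin, a flavan-3-ol, gave the other 4. At 2 µM CALR (0.62 ± 0.18, edgeR adjusted p = 0.04) and PDIA4 (0.40 ± 0.13, 0.047) passed, with 8.06% of all genes called. At 0.4 µM HYOU1 (0.53 ± 0.16, edgeR adjusted p = 0.044) and DNAJB11 (0.39 ± 0.12, 0.048) passed, with 4.66% called. The mitochondrial share was 0.486, 3.52 and 6.51% in the libraries at 2 µM and 4.16, 5.88 and 1.73% at 0.4 µM. CALR at 2 µM was at 972, 725 and 698 CPM against 524, 522 and 515 CPM in vehicle, highest where the share was lowest. With the share as a covariate no member passed at 2 µM and 1, HYOU1, at 0.4 µM. Other settings moved the counts the other way. Without the libraries of low share, which kept 1 catechin library at 2 µM and 2 at 0.4 µM, 7 and 8 members passed, all higher. With only the groups compared, 3 and 9 passed. DESeq2 called 5 and 3. The share of all genes called in these settings is not given here for catechin, so the counts are no result about the members. Each catechin call at 0.4 µM was lost without any 1 of the 6 libraries compared, and at 2 µM the calls numbered 0 without any 1 vehicle library and up to 6 without replicate 3.

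At 10 µM catechin neither edgeR nor DESeq2 called a member, and 4 had an unadjusted edgeR p under 0.05. Of all genes 0.0655% were called there in edgeR. With only the groups compared 7 members passed, and 6 passed without both the COL1A2 libraries and those of low mitochondrial share, all of them higher. Here too the share of all genes called in these settings is not given. HSPA5 was at 749.7, 1361 and 756 CPM with catechin at 10 µM, where replicate 2 is a COL1A2 library. In all 4 COL1A2 libraries HSPA5 was at 1270 to 1503 CPM, higher than in every other library but gallic acid 10 µM replicate 1 (1412 CPM).

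Oleanolic acid, a pentacyclic triterpene acid, changed DNAJB9 with dose. DNAJB9 was at 12.9, 13 and 15.1 CPM at 10 µM and at 7.71, 7.12 and 8.52 CPM at 0.4 µM, with vehicle between them at 10.9, 10.4 and 11.2 CPM. The difference between the doses was 0.81 ± 0.14 (edgeR adjusted p = 0.00011, 2.47% of all genes called) and was of like size with the mitochondrial share as a covariate (0.77) and without the libraries of low share (0.75). Against vehicle neither dose passed (0.33 and -0.48, edgeR adjusted p = 0.21 and 0.25). At 10 µM HSPA5 was above vehicle in all 3 libraries (855, 803 and 892 CPM) and CALR below it (396, 392 and 406 CPM against 524, 522 and 515), yet neither passed (0.43 ± 0.20 and -0.39 ± 0.18, edgeR adjusted p = 0.27 for both). HYOU1 was also above vehicle in all 3 libraries (146, 138 and 169 CPM against 108, 109.9 and 109.5) and did not pass (0.47 ± 0.16, edgeR adjusted p = 0.084). With DNAJB9, 3 members lay wholly above vehicle and 1 wholly below it, where 20.1% and 19.7% of all genes did. HSPA5 also lay wholly above vehicle at each dose of catechin, gallic acid, hederagenin, paeonol and paeoniflorin, where 12.5 to 24.2% of all genes did. HYOU1 did so at each dose of catechin, gallic acid, hederagenin and paeonol, and in no albiflorin or benzoic acid group. Replicate 3 of oleanolic acid at 10 µM had a mitochondrial share of 2.97%. Without the 17 libraries of low share, HSPA5 (0.39), HYOU1 (0.37) and CALR (-0.41) passed. With hederagenin, the related triterpene, DNAJB9 ran the same way, at 11.4 to 14.1 CPM at 10 µM and 7.71 to 10.3 CPM at 0.4 µM. These lay wholly above and wholly below vehicle, as did 19.1% and 15.7% of all genes. Between these hederagenin doses no member passed (lowest edgeR adjusted p = 0.062, 1.05% of all genes called).

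**Figure D5:**
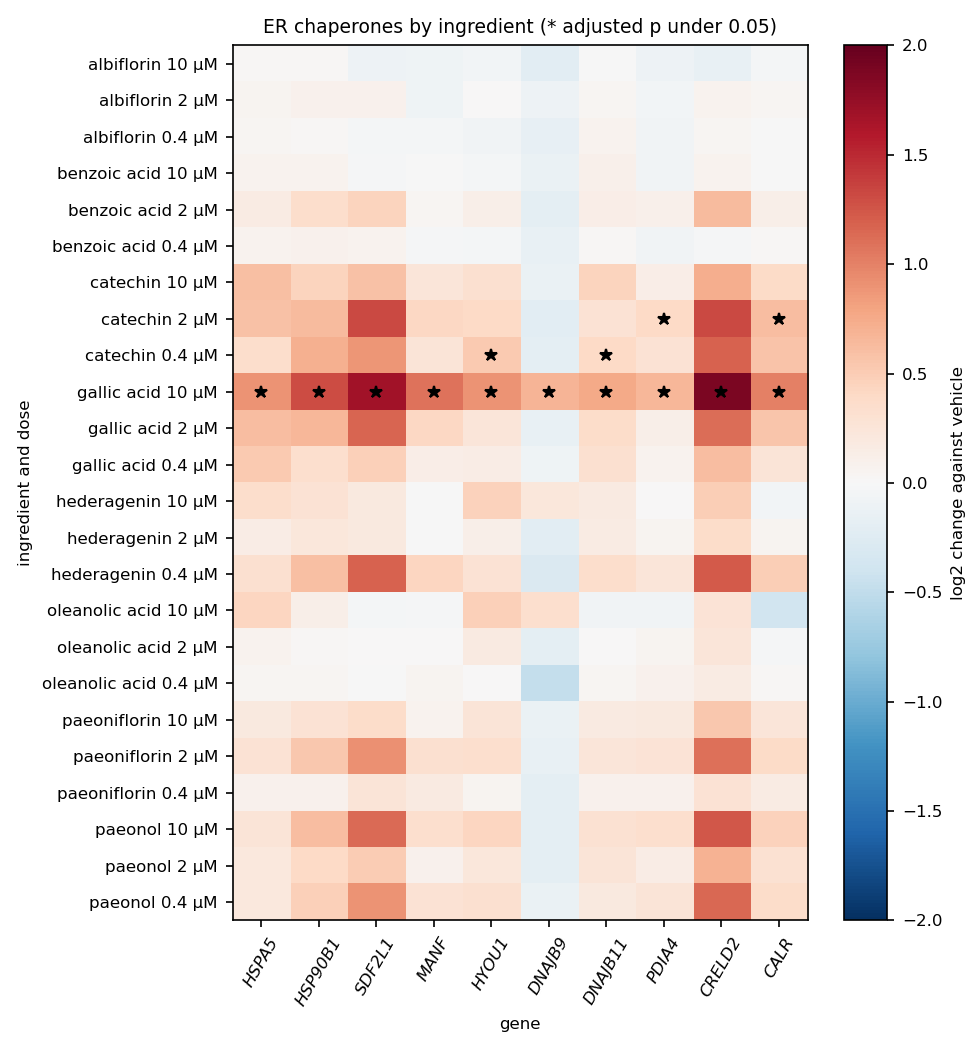
Log2 change against vehicle of each of the 10 genes (columns) for 8 ingredients at 3 doses (rows), red higher and blue lower, with stars at adjusted p under 0.05. All 10 cells of gallic acid 10 µM carry a star, and DNAJB9 stays near 0 or below it in most other rows.

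Structurally related ingredients were set against each other at matched dose in 3 pairs and 9 comparisons. Gallic acid carries hydroxyl groups on the ring that benzoic acid lacks. At 10 µM gallic acid was higher than benzoic acid in all 10 members (8.70% of all genes called), by 0.66 (95% interval 0.41 to 0.90) for DNAJB11 to 1.82 (0.90 to 2.74) for CRELD2. Adjusted over the 9 pair comparisons of each gene, edgeR p was at most 0.0054. HSPA5 was at 712, 657 and 615 CPM with benzoic acid, whose mitochondrial shares were 11.8 to 12.2%. Leaving out gallic acid replicate 1 left 5 of the 10 calls, and leaving out the libraries of low mitochondrial share, and with them gallic acid replicates 1 and 3, left 5 with differences of 0.27 to 0.73. With only the groups compared none passed (edgeR adjusted p = 0.25). At 2 and 0.4 µM no member passed over all genes (0% of all genes called at both), with intervals from -0.42 to 1.64 and from -0.51 to 1.55. Over the 9 comparisons DNAJB11 alone passed at 0.4 µM (0.30, interval 0.061 to 0.55, edgeR adjusted p = 0.046).

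Hederagenin is oleanolic acid with an added hydroxyl group. Between them no member passed over all genes at any dose in the edgeR test. Of all genes 0.0109% were called at 10 µM and 0% at 2 and 0.4 µM. The unadjusted edgeR p was under 0.05 for 1, 0 and 6 members at 10, 2 and 0.4 µM. At 10 µM HSPA5 differed by -0.080 (95% interval -0.49 to 0.33), DNAJB9 by -0.11 (-0.39 to 0.18) and CALR by 0.34 (-0.026 to 0.70), and differences of either sign lie within these intervals. At 0.4 µM, where hederagenin replicates 1 and 2 had mitochondrial shares of 2.17 and 1.55%, CALR (0.48, interval 0.11 to 0.84) and DNAJB11 (0.32, 0.077 to 0.56) passed over the 9 comparisons with edgeR adjusted p of 0.049 and 0.046. Paeoniflorin and albiflorin, isomeric monoterpene glycosides, gave no member past the edgeR test at any dose (0% of all genes called at each). They had 1, 4 and 0 members at an unadjusted edgeR p under 0.05. Their intervals ran from -0.46 to 1.60 at 10 µM, from -0.33 to 1.94 at 2 µM and from -0.66 to 1.23 at 0.4 µM. DESeq2, like edgeR, called 10 of the 90 member tests over these pairs.

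Within each batch, a member was compared with the mean of the other 9 over group mean log2 CPM. Over the 7 groups of the extract batch r was 0.95 for CRELD2 and for PDIA4, 0.85 for HSPA5, 0.42 for MANF and -0.64 for DNAJB9. Over the 25 groups of the ingredient batch r was 0.98 for HSP90B1 and 0.36 for DNAJB9, and the other 8 lay between 0.84 and 0.95. Outside the members, the genes most like their mean were ARSJ (0.98), FOXRED2, SLC40A1, the pseudogene FTLP3 and COG1 in the extract batch, and CTSL (0.97), PDIA6, MESDC2, LUC7L3 and CXXC1 in the ingredient batch. These correlations are across groups that share vehicle and depth, 7 or 25 points, and serve as a description only.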

How the data were processed

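The deposited table holds RSEM expected counts per gene, made by the authors from the reads of 96 libraries. The tools named are RSEM 1.3.3, STAR, Trim Galore and FastQC, and the build GRCh38 (hg38), per the submitters' processing notes. For settings, annotation release and strand, the answer is not given in the sources used here. Per the labels, the library kit keeps strand. Reads shared between genes were divided, so only 89.2% of the values were whole (15.6% for HSPA5, 12.5% for CALR).

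The counts were rounded, and a separate model per batch, holding every group of it, was fitted in edgeR 4.0.16 (R 4.3.3) with TMM factors, filterByExpr, the quasi-likelihood F-test and Benjamini-Hochberg adjustment over the 16854 or 18324 genes tested, at a threshold of 0.05. The fit of the extract batch alone was tested on counts simulated with its own fitted dispersions. That test says nothing about the ingredient batch. The common coefficient of variation was 0.0444 for the extracts and 0.212 for the ingredients, so changes detectable among the former can go undetected among the latter. TMM factors ran from 0.911 to 1.04 and from 0.934 to 1.10. Standard errors are the log2 change divided by the square root of F.

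The members, lists and tests were chosen with earlier results of these data known. All 10 members are named in each extract comparison, and elsewhere where one passed. From each list up to 4 genes with the smallest p or any gene past the threshold may be named, and likeness names 5 genes per batch with at least 10 CPM. HSPA5 in the COL1A2 libraries, and HSPA5, HYOU1 and CALR with oleanolic acid at 10 µM, were singled out after their values were seen. Gene positions and overlaps come from GENCODE release 29, promoter windows from RefSeq. Alternatives were DESeq2 1.42.0, relative log expression (RLE) factors, no filter, a replicate block, only the groups compared, each library left out, and, in the second batch, libraries with over 50 CPM of COL1A2 or a mitochondrial share under the vehicle median divided by 3 left out. The mitochondrial share as a covariate and both library exclusions together were added after the data were seen. Where a library was left out of the second batch, the genes and dispersion trend of the 75-library fit were kept.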

Additional observations from a re-analysis of the deposited data

Results flagged for a closer look

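The step from 100 to 500 µg/mL differed between the ethanol and the water extract in all 10 chaperones, tested by the interaction term (edgeR, adjusted p under the threshold in each). As log2 differences, ethanol minus water extract, the values were -1.35 for HSP90B1, -1.09 for CRELD2, -1.05 for SDF2L1, -0.94 for HYOU1, -0.74 for HSPA5, -0.66 for CALR, -0.58 for PDIA4, -0.21 for DNAJB11 and -0.20 for MANF. For DNAJB9 the value was 0.54, the only one above 0. The background was 52.8% of all genes. DESeq2 and RLE factors each left 9 of the 10 past the threshold, with MANF lost, and MANF was also lost in 10 of the 12 fits that left out 1 library.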

How the results depend on the processing

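Of 140 member tests in the extract batch 69 passed, 53 of these passed in each setting except the mitochondrial covariate, 50 in each setting run, and none reversed. No setting run moved the 9 calls of ethanol extract 500 µg/mL against vehicle. The labels do not say that replicate numbers pair libraries, and the correlation of same-numbered deviations was not over 0.1 throughout (median 0.029 and 0.013, lowest -0.054 and -0.74), so the replicate block is an alternative. As a hint from the data and not the design, 16 of 21 and 40 of 75 libraries were closest to their own number, and replicate 3 had the highest mitochondrial share in each group of the extract batch. The block moved a count of calls past 1.5 times only for water extract 20 µg/mL, from 1 to 2. It raised ethanol extract 100 against 20 from 8 to 10 and ethanol against water extract at 100 µg/mL from 6 to 8. Without the filter on low counts the call of ethanol extract 20 µg/mL was lost (0) and the 7 calls of ingredients at 10 against 0.4 µM became 4. With the mitochondrial share as a covariate the counts were 3 for ethanol extract 20 µg/mL, 2, 0 and 2 for water extract 500, 100 and 20 µg/mL, and 14 for 10 against 0.4 µM. With only the groups compared they were 0 for ethanol extract 20 µg/mL, 3 and 1 for water extract 500 and 100 µg/mL, 30 for ingredients against vehicle, 4 for 10 against 0.4 µM and 0 for related pairs. Without the libraries of low mitochondrial share 34 of 240 ingredient tests and 6 of 90 pair tests passed, and without these and the COL1A2 libraries 40 ingredient tests. The cause of these moves was not tested, beyond fewer libraries in the last 3 settings.

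Leaving out 1 library gave 4 to 8 calls for ethanol extract 100 µg/mL, 0 to 2 for ethanol extract 20, 3 to 6, 1 to 2 and 1 to 2 for water extract 500, 100 and 20, 5 to 7 for ethanol extract 100 against 20, 1 to 2 for water extract 500 against 100, 9 to 21 for ingredients against vehicle (9 without any 1 vehicle library), 2 to 10 for 10 against 0.4 µM (2 without gallic acid 10 µM replicate 1, 3 without its replicate 3 or without gallic acid 0.4 µM replicate 1 or 2) and 5 to 13 for related pairs (5 without gallic acid 10 µM replicate 1). Counts per library in the extract batch were lowest for DNAJB9 (130 to 581), SDF2L1 (179 to 485) and CRELD2 (185 to 567), which limits the precision of their changes.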
